A study of Mus musculus with 3 samples.

Results

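The glutathione and antioxidant enzyme genes were taken as the rows of the count table whose symbol names a glutathione peroxidase (Gpx), a microsomal glutathione transferase (Mgst) or a glutathione transferase of the alpha, mu, pi, theta, kappa or omega class (Gst), each with a number, together with Gclc, Gclm, Gss, Gsr, Nqo1, Txnrd1, Hmox1, Srxn1 and Nfe2l2. This gave 40 of the 46095 gene symbols. All libraries came from prostate tumor tissue of male TRAMP mice, which carry an SV40 oncoprotein transgene expressed in the prostatic epithelium, at 37 weeks of age. The TRAMP group is 1 library of PHF8 wild-type mice, and the Phf8-KO group is 2 libraries, Phf8-KO1 and Phf8-KO2, of PHF8 knockout TRAMP mice bred by crossing Phf8 knockout females with TRAMP males. Each library is RNA pooled in equal mass from 3 mice, and which lesions the pools held is not stated. The Phf8-KO pools may or may not share mice, which is not stated, so p-values measure only the spread between these libraries.

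Glutathione is the main small thiol of the cell. It is built in steps by glutamate-cysteine ligase and glutathione synthetase, is spent by peroxidases that reduce peroxides and by transferases that couple it to reactive compounds, and is regenerated by glutathione reductase with NADPH. The transcription factor NRF2, product of Nfe2l2, is held back by KEAP1 and, when released, binds antioxidant response elements in the promoters of many of these genes. In the prostate, silencing of the pi class transferase gene by promoter methylation is a well-known feature of human cancer.

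Promoter sequences show where the core of that element, searched as TGACNNNGC on both strands, lies in these genes. RefSeq promoters of GRCm38.p6, from 250 bases before to 50 bases after a start site, were matched for 35 of the 40 genes, and Gclc, Gsr, Gsta4, Gstt2 and Hmox1 had no entry. The core was found in 8 of the 35 (22.9%), against 14.0% of all 27025 genes with a promoter. Some genes have several promoters. Counted per promoter, the core was in 8 of 48 (16.7%), against 12.4% of all 32851 promoters. Whether these shares differ was not tested. The 8 genes with the core are Gsta3, Nfe2l2, Srxn1, Gstm5, Gstm7, Gclm, Mgst1 and Txnrd1. The stretches of 5 of them, with genes from both directions of difference, were chosen after the values were seen and are printed 5′ to 3′ on the strand of the gene, with the core or its reverse complement in capitals. None of the 8 matches overlapped the AP-1 core TGANTCA. Distances are to the start site of the matched promoter, which need not be the first base of the gene. For Txnrd1 it is a start inside the gene, and for Gclm and Gsta3 it also differs from the first base.
Txnrd1, chr10:82859078-82859158, plus strand, 92 bases before the start: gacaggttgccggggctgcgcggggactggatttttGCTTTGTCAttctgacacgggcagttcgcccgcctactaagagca
Gclm, chr3:122245387-122245467, plus strand, 134 bases before the start: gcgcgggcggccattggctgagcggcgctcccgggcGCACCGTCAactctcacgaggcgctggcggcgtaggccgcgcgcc
Gsta3, chr1:21240428-21240508, plus strand, 121 bases before the start: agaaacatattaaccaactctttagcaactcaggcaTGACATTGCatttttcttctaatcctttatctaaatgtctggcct
Nfe2l2, chr2:75704859-75704913, minus strand, 240 bases before the start: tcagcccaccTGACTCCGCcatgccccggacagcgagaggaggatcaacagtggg
Mgst1, chr6:138140435-138140515, plus strand, 56 bases before the start: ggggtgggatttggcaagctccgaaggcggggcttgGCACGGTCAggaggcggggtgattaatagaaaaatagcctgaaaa
By this choice, the printed stretches come from genes higher in both Phf8-KO pools (Txnrd1, Gclm) and from genes lower in both (Gsta3, Nfe2l2, Mgst1). Of the matches not printed, Srxn1 and Gstm7 were above TRAMP in both pools, and the Gstm5 pools lay on different sides of it. A match is a description of the letters and not a measured binding site.

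Reads were counted per gene, and the libraries hold 26747443 to 31876182 counts. Levels are given in CPM, a gene's counts scaled to the size of its library after TMM normalization. The knocked-out gene Phf8 was at 19.4 (TRAMP), 15.0 (Phf8-KO1) and 15.9 CPM (Phf8-KO2), and the sources used here do not state which part of the gene the allele lacks, so this count does not check the genotype. Markers of several cell types and tissues differed between the libraries. All 8 skeletal muscle markers were lower in both Phf8-KO pools, summing to 1598 CPM in TRAMP and 17.4 to 73.9 CPM in Phf8-KO, as were all 6 adipocyte markers (655 CPM, and 19.5 to 30.8 CPM), all 5 erythroid markers (394 CPM, and 68.0 to 98.4 CPM) and all 6 macrophage markers (351 CPM, and 79.4 to 181 CPM). All 7 seminal vesicle markers were higher, at 116 CPM in TRAMP and 1435 to 2101 CPM in Phf8-KO. Smooth muscle markers stood at 4997 CPM in Phf8-KO1 against 674 CPM in TRAMP and 364 CPM in Phf8-KO2. Fibroblast markers were at 1725 (TRAMP), 1689 (Phf8-KO1) and 703 CPM (Phf8-KO2), with 3 of 6 above TRAMP in both pools and 1 below. Luminal prostate markers were at 7552, 6913 and 2690 CPM (4 of 6 below TRAMP in both pools, 1 above). Neuroendocrine markers were at 114, 39.1 and 20.3 CPM (4 of 6 below, 0 above). Mucus-secreting cell markers were at 792, 596 and 2685 CPM (2 of 5 above, 1 below). Hepatocyte markers were at 10.1, 261 and 9.60 CPM. Their sum was high in Phf8-KO1 alone, although 3 of 4 were above TRAMP in both pools. The part of these tissues in the results below was not tested. In such bulk samples, fewer cells of a type and less RNA per cell cannot be told apart.

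Of the 40 genes, 36 passed the filter on low counts and were tested. More of them were lower than higher in Phf8-KO. Both Phf8-KO pools were below TRAMP for 20 of the 36 (55.6%, against 42.8% of the 18216 genes tested), above it for 8 (22.2%, against 40.8%) and on different sides for the other 8. The median log2 fold change of Phf8-KO over TRAMP was -0.31, against 0.01 over all genes tested. Against 1 pool at a time, 24 of 36 were below TRAMP in Phf8-KO1 (background 50.3%) and 24 in Phf8-KO2 (background 51.5%), and 12 were above it in each (background 49.7% and 48.3%). By the quasi-likelihood test of edgeR (Benjamini-Hochberg adjusted p under 0.05 and a change of more than 2-fold), 0 of the 36 were called lower and 0 higher, where the background was 0.0384% of all genes lower and 0.00% higher. Before adjustment, edgeR's p was under 0.05 for 10 members lower in Phf8-KO (background 12.2%) and for 4 higher ones (background 14.9%). DESeq2 gave an adjusted p for 35 members and called 5 of them lower (Gpx8, Gsta3, Gstt1, Gstt2 and Mgst2, background 4.59%) and 3 higher (Gpx5, Gsto1 and Txnrd1, background 9.42%). More than 2-fold from TRAMP in both Phf8-KO pools were the same 5 lower genes (background 12.1%) and Gpx5 and Txnrd1 (background 11.4%). In Phf8-KO1 alone 6 were more than 2-fold lower (background 16.1%) and 3 higher (background 16.5%), and in Phf8-KO2 alone 9 lower (background 19.5%) and 2 higher (background 16.7%). The likelihood ratio test of edgeR called 5 lower (background 5.38%) and 2 higher (background 6.02%), as did its quasi-likelihood test without the filter on low counts (background 3.32% and 5.55%). The spread in these tests comes from the 2 Phf8-KO pools alone (1 residual degree of freedom), and TRAMP is assumed to vary as they do.

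**Figure D1:**
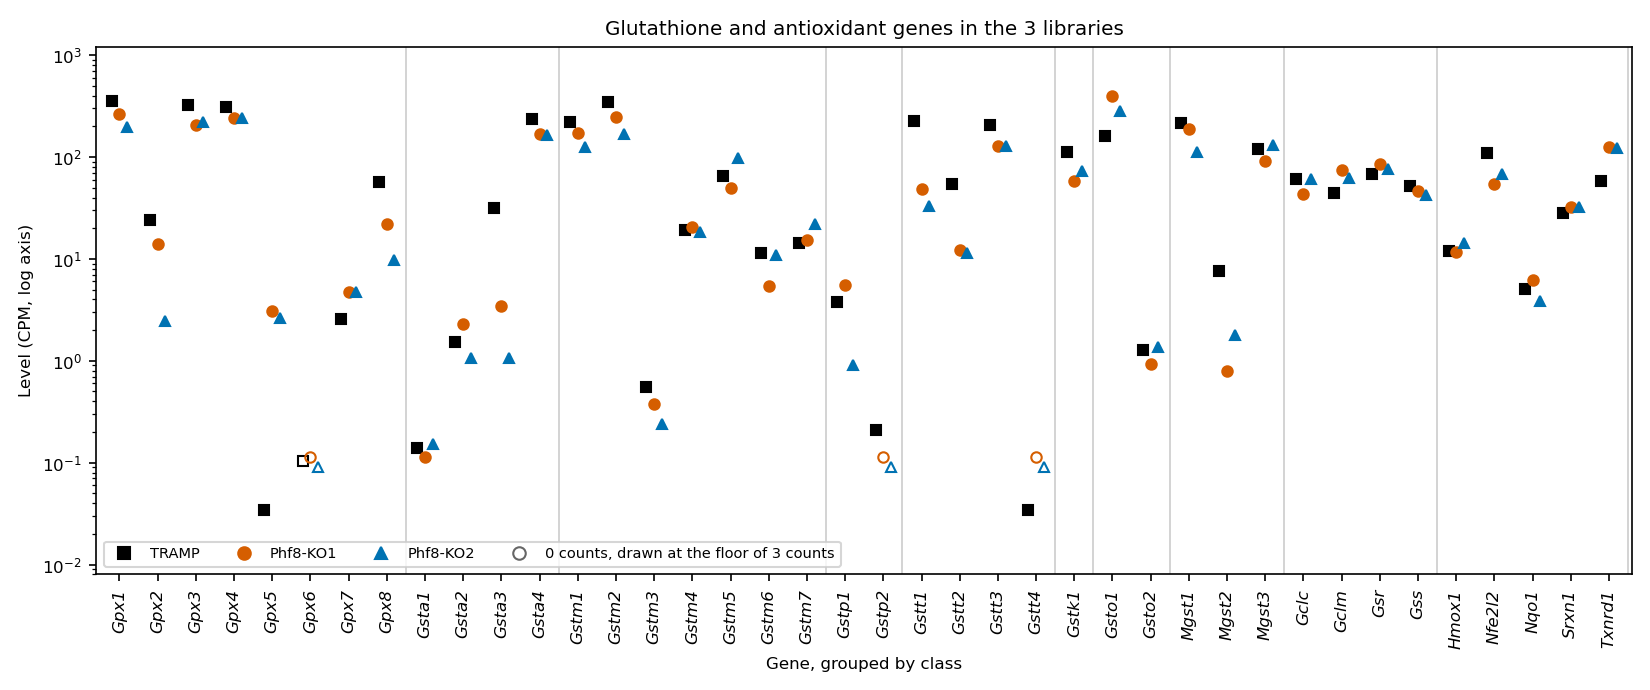
Level in CPM (log axis) of all 40 genes, grouped by class, in TRAMP (squares), Phf8-KO1 (circles) and Phf8-KO2 (triangles), each 1 library of RNA pooled from 3 mice. Open symbols are 0 counts drawn at the floor of 3 counts (0.0905 to 0.113 CPM). Counts above 0 are drawn at their own level, so 1 count can lie below an open symbol, as for Gstt4. Gstt1, Gstt2 and Gsta3 lie far below TRAMP in both Phf8-KO pools, while Gsto1 and Txnrd1 lie above it.

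The summed level of the 40 genes was 3560 (TRAMP), 2851 (Phf8-KO1) and 2548 CPM (Phf8-KO2). The theta class had the largest relative difference among the classes summing to over 10 CPM, at 181 ± 10.4 CPM (SD, n = 2) in Phf8-KO against 486 CPM. The glutathione peroxidases took 1070 CPM of TRAMP and 717 ± 57.1 CPM of Phf8-KO counts, the mu class 672 and 478 ± 45.7 CPM, the microsomal transferases 345 and 262 ± 23.9 CPM, and the alpha class 271 and 169 ± 5.02 CPM. In each of these 5 classes both Phf8-KO pools lay below TRAMP. The omega class went the other way, at 164 (TRAMP), 399 (Phf8-KO1) and 283 CPM (Phf8-KO2). The sums for glutathione synthesis and reduction, at 225 and 245 ± 4.61 CPM, and for NRF2 with its targets, at 212 and 236 ± 7.89 CPM, were close to TRAMP. Within the NRF2 class, Nfe2l2 was below TRAMP and Txnrd1 above it in both pools, and these differences offset each other in the sum. Upper quartile scaling put the median of all genes tested at -0.14, and with it the log2 ratio of the synthesis and reduction class turned from 0.12 to -0.03 and that of NRF2 with its targets went from 0.15 to 0.0047.

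**Figure D2:**
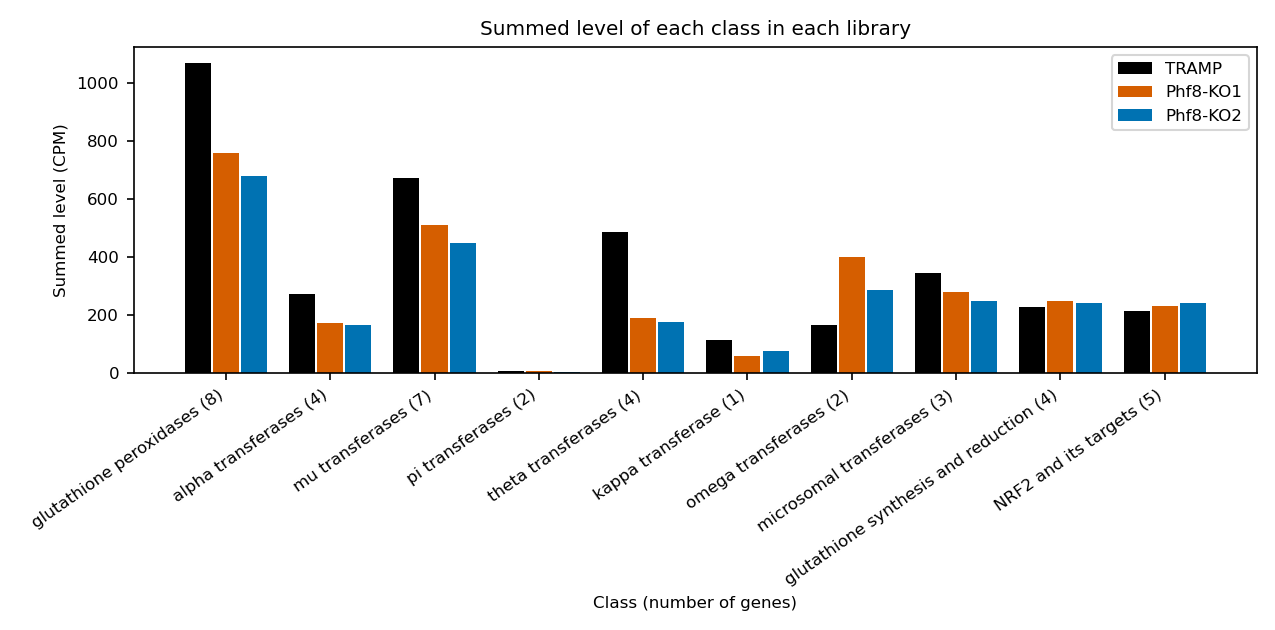
Summed level in CPM of each class in TRAMP, Phf8-KO1 and Phf8-KO2, with the number of genes in brackets. Each bar is 1 library and has no error bar. The theta class stands at 486 CPM against 188 and 174 CPM with Phf8 knocked out, and the omega class at 164, 399 and 283 CPM.

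The theta class transferases act on small halogenated and epoxide compounds. Their genes lie side by side on chromosome 10 of GRCm38 within 63.3 kb, from 75774117 to 75837419, in the order Gstt3, Gstt1, Gstt4, Gstt2, all on the minus strand. Gstt1 (75783813 to 75798584) was at 225 (TRAMP), 48.0 (Phf8-KO1) and 33.4 CPM (Phf8-KO2). Both pools were thus at 0.214 and 0.148 of the TRAMP level, a log2 fold change of -2.47 (standard error, SE, 0.28, edgeR adjusted p 0.101, DESeq2 adjusted p 8.3e-10). Gstt2 (75831842 to 75837419) was at 54.7 (TRAMP), 12.2 (Phf8-KO1) and 11.5 CPM (Phf8-KO2), with the Phf8-KO pools only 1.05-fold apart (log2 fold change -2.21, SE 0.19, edgeR adjusted p 0.101, DESeq2 adjusted p 2.68e-07). Gstt3, their neighbor, was at 206 CPM against 128 and 129 CPM with Phf8 knocked out, a smaller log2 fold change of -0.69 (SE 0.18, edgeR adjusted p 0.133). Whether Gstt3 differed less than Gstt1 and Gstt2 was not tested. Gstt4, which lies between Gstt1 and Gstt2, had 1 count in TRAMP and 0 counts in the Phf8-KO pools. Little of the Gstt1, Gstt2 and Gstt3 sequence recurs elsewhere, with 0% to 3.20% of the 50-base stretches of the longest transcript found in transcripts of another gene, though 13.6% of the Gstt3 exon bases overlap Gm20441 on the same strand.

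The alpha class enzymes conjugate products of lipid peroxidation, and Gsta4 prefers 4-hydroxynonenal. Gsta3, also known for steroid isomerization, lies apart from the others on chromosome 1, from 21240565 to 21265575. It had 904 counts in TRAMP, 91 in Phf8-KO1 and 35 in Phf8-KO2, or 31.3, 3.42 and 1.06 CPM. Both Phf8-KO pools were far below TRAMP, although 3.23-fold apart from each other (log2 fold change -3.81, SE 0.75, edgeR adjusted p 0.107, DESeq2 adjusted p 2.02e-05). Gsta4, on chromosome 9, differed less, at 238 CPM against 167 and 163 CPM with Phf8 knocked out (log2 fold change -0.53, SE 0.19). Its neighbors Gsta1 and Gsta2 were at 2.29 CPM or less in every library, and 89.7% and 64.2% of their 50-base stretches recur in other genes, so their reads cannot be assigned to 1 gene with certainty.

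The mu class, 7 genes within 149 kb of chromosome 3, includes the detoxifying enzymes Gstm1 and Gstm2. Gstm2 was at 343 (TRAMP), 249 (Phf8-KO1) and 170 CPM (Phf8-KO2) (log2 fold change -0.71, SE 0.31). Gstm1 was at 219, 170 and 126 CPM in the same order (log2 fold change -0.56, SE 0.26). For both genes Phf8-KO1 lay between TRAMP and Phf8-KO2, and 23.2% of the Gstm1 stretches recur in other genes, most of them in the pseudogene Gstm2-ps1. Gstm5 separated the Phf8-KO pools, at 64.8 (TRAMP), 49.6 (Phf8-KO1) and 98.8 CPM (Phf8-KO2), and it shares 13.9% of its exon bases with 4933431E20Rik on the opposite strand. Gstm6 was at 11.5, 5.44 and 10.9 CPM, with Phf8-KO2 close to TRAMP. Gstm4 was level across the libraries, at 19.4, 20.6 and 18.4 CPM, Gstm7 was at 14.5, 15.5 and 21.8 CPM, and Gstm3 was at 0.554 CPM or less.

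The pi class genes gave few counts. Gstp1 was at 3.81 (TRAMP), 5.48 (Phf8-KO1) and 0.905 CPM (Phf8-KO2), so that the Phf8-KO pools lay on different sides of TRAMP and 6.05-fold apart. Gstp2 had 6 counts in TRAMP and 0 in both Phf8-KO pools. Of the 50-base stretches of Gstp1, 62.3% recur in Gstp2. How reads from shared stretches were assigned is not given in the sources used here, so the pi class levels are uncertain. Gstk1, the single kappa class gene, whose product resides in mitochondria and peroxisomes, was at 111 (TRAMP), 58.5 (Phf8-KO1) and 73.1 CPM (Phf8-KO2) (log2 fold change -0.75, SE 0.22, edgeR adjusted p 0.147).

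Gsto1, an omega class enzyme with thioltransferase and dehydroascorbate reductase activity, lies on chromosome 19 from 47854973 to 47864790 and was among the few higher genes. It was at 162 (TRAMP), 398 (Phf8-KO1) and 282 CPM (Phf8-KO2). Both Phf8-KO pools were above TRAMP, by 2.45-fold and 1.74-fold (log2 fold change 1.07, SE 0.32, edgeR adjusted p 0.153, DESeq2 adjusted p 0.0126). Its neighbor Gsto2 was at 1.28, 0.938 and 1.36 CPM. Per length, in CPM per kb of GENCODE exon, Gsto1 ranked 10 among the 40 genes in TRAMP with 80.3, and ranked 1 in both Phf8-KO pools with 197 and 139. Gpx1 ranked 1 in TRAMP with 244 and stood at 182 and 136 in the Phf8-KO pools. In Phf8-KO2 the levels per kb of Gsto1, Gpx4 and Gpx1 lay within 139 to 136. Because 61.7% of the 50-base stretches of Gpx4 recur in the pseudogene Gpx4-ps2, the order of Gsto1 and Gpx4 there is uncertain. Gstt1 went from rank 7 with 147 CPM per kb in TRAMP to ranks 13 and 14 with 31.4 and 21.8 CPM per kb.

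**Figure D3:**
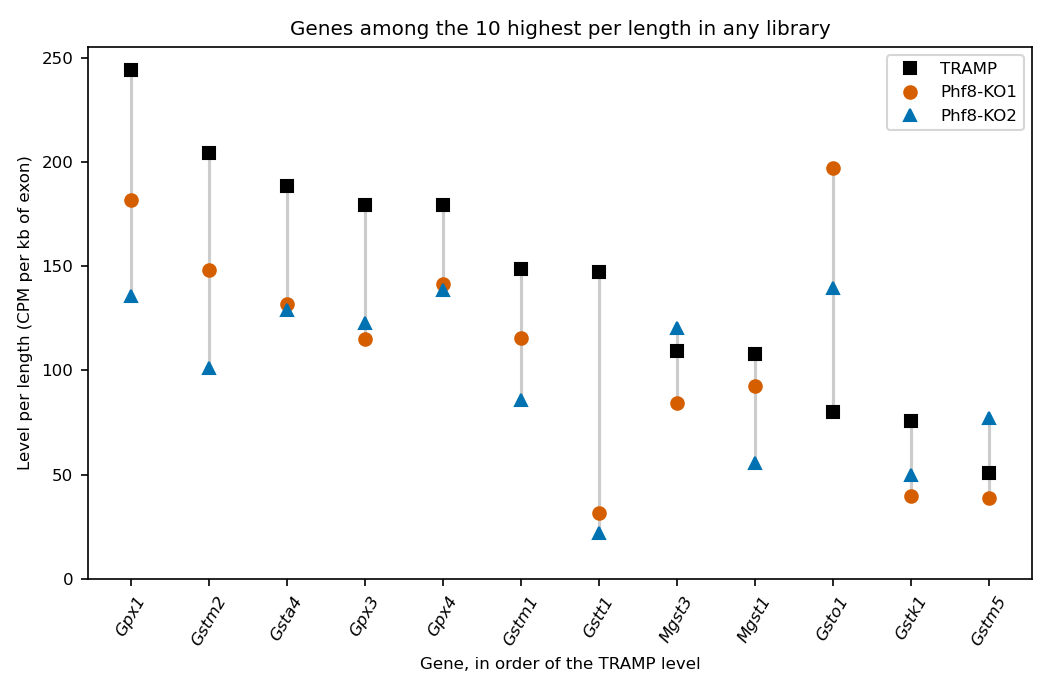
Level per length, in CPM per kb of annotated exon, of the genes among the 10 highest in any library, in the order of their TRAMP level, drawn with squares (TRAMP), circles (Phf8-KO1) and triangles (Phf8-KO2). Each point is 1 library. Gsto1 stands at 80.3 in TRAMP and at 197 and 139 in the Phf8-KO pools, and Gstt1 at 147, 31.4 and 21.8.

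Among the microsomal transferases, membrane enzymes of which Mgst2 can also make leukotriene C4, Mgst2 differed most. It had 219 counts in TRAMP, 21 in Phf8-KO1 and 59 in Phf8-KO2, or 7.58, 0.788 and 1.78 CPM (log2 fold change -2.55, SE 0.68, edgeR adjusted p 0.137, DESeq2 adjusted p 0.0408). Mgst2 is below the minimum of 10 CPM set for genes described in full and is named because DESeq2 called it. Mgst1 was at 218 (TRAMP), 186 (Phf8-KO1) and 112 CPM (Phf8-KO2) (log2 fold change -0.55, SE 0.37). For Mgst3 the Phf8-KO pools lay on different sides of TRAMP, at 92.3 and 132 CPM against 120 CPM.

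The glutathione peroxidases Gpx1 to Gpx4 are selenoproteins, and all of these genes were lower in both Phf8-KO pools. Gpx1, the cytosolic enzyme, was at 352 (TRAMP), 262 (Phf8-KO1) and 195 CPM (Phf8-KO2) (log2 fold change -0.62, SE 0.27, edgeR adjusted p 0.244). Gpx3, the secreted plasma enzyme, was at 325, 208 and 223 CPM (log2 fold change -0.59, SE 0.20). Gpx4, which reduces lipid hydroperoxides in membranes and guards against ferroptosis, was at 309, 244 and 239 CPM, the smallest difference of the 4 (log2 fold change -0.36, SE 0.20), and 61.7% of its 50-base stretches recur in the pseudogene Gpx4-ps2. Gpx2, the epithelial enzyme of the gut, was at 23.9, 14.1 and 2.44 CPM. Its Phf8-KO pools were 5.76-fold apart, a spread larger than the difference of Phf8-KO1 from TRAMP (log2 fold change -1.54, SE 1.04, edgeR adjusted p 0.399). Erythroid and macrophage markers were lower in the same pools, and their part in these values was not tested.

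The peroxidases that carry cysteine in place of selenocysteine differed among themselves. Gpx8, an enzyme of the endoplasmic reticulum encoded on chromosome 13 from 113042757 to 113046430, was at 57.5 (TRAMP), 22.2 (Phf8-KO1) and 9.84 CPM (Phf8-KO2). Both Phf8-KO pools were below TRAMP but 2.26-fold apart (log2 fold change -1.84, SE 0.52, edgeR adjusted p 0.144, DESeq2 adjusted p 0.0114). Gpx7, of the same compartment, was at 2.60, 4.69 and 4.68 CPM. Gpx5, the epididymal peroxidase, had 1 count in TRAMP, 82 in Phf8-KO1 and 88 in Phf8-KO2, a count ratio of 82.2 after scaling by library size, with a 95% exact interval of 14.6 to 3264 that covers counting error only (edgeR adjusted p 0.101, DESeq2 adjusted p 0.00359). At 3.08 and 2.66 CPM it stayed low, and it is named although below 10 CPM because DESeq2 called it. The 5 epididymal markers summed to 3.32 (TRAMP), 4.77 (Phf8-KO1) and 3.89 CPM (Phf8-KO2), with 2 markers above TRAMP in both pools and 0 below. Adam7, Lcn5, Lcn8 and Defb20 were at 0 in TRAMP, Lcn8 and Defb20 in Phf8-KO1, and Adam7 and Lcn8 in Phf8-KO2, so the TRAMP sum is that of Crisp1 alone. The part of epididymal tissue in the Gpx5 counts was not tested. Gpx6, which adjoins Gpx5 on chromosome 13, had 0 counts in all libraries, which allows up to 0.113 CPM.

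**Figure D4:**
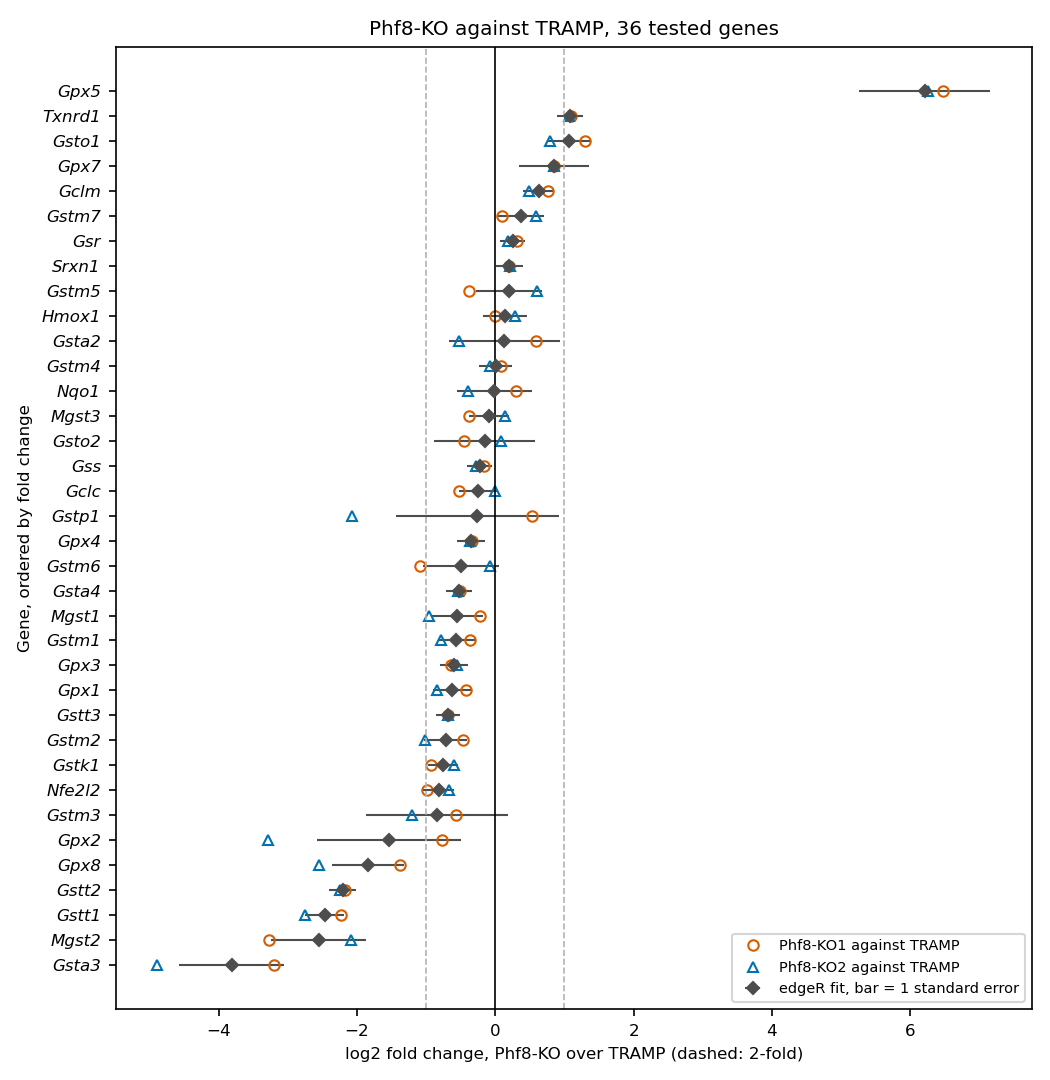
log2 fold change of Phf8-KO over TRAMP for the 36 tested genes, ordered by size, with the edgeR estimate and its standard error (diamonds, bars) and the ratio of each Phf8-KO pool to TRAMP (Phf8-KO1 as circles, Phf8-KO2 as triangles). Dashed lines mark 2-fold. Gsta3, Mgst2, Gstt1, Gstt2 and Gpx8 have both pools beyond the left line, and Txnrd1 and Gpx5 beyond the right one.

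The genes that make and regenerate glutathione went both ways, with 2 above TRAMP in both pools (background 40.8%) and 2 below (background 42.8%). Gclc, the catalytic subunit of glutamate-cysteine ligase, was at 61.5 (TRAMP), 42.9 (Phf8-KO1) and 61.0 CPM (Phf8-KO2). Gclm, its modifier subunit, was at 44.2, 75.0 and 61.6 CPM (log2 fold change 0.63, SE 0.22, edgeR adjusted p 0.184). The modifier subunit was above TRAMP in both pools, by 1.70-fold and 1.40-fold, while Phf8-KO2 stood at the TRAMP level of the catalytic one. For Gclc the log2 fold change was -0.24 (SE 0.28, edgeR adjusted p 0.609). Gss, glutathione synthetase, was at 51.7, 46.1 and 42.5 CPM, and Gsr, glutathione reductase, at 67.8, 84.5 and 76.8 CPM. Their log2 fold changes of -0.23 and 0.25 (SE 0.19 for each) were small beside those of Gsto1 or Gstt1.

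Nfe2l2 itself, on chromosome 2 from 75675513 to 75704663, was lower in both Phf8-KO pools, at 108 (TRAMP), 54.6 (Phf8-KO1) and 68.3 CPM (Phf8-KO2) (log2 fold change -0.82, SE 0.22, edgeR adjusted p 0.136, DESeq2 adjusted p 0.0853). The 4 targets listed with it, Txnrd1, Nqo1, Hmox1 and Srxn1, were not lower in both pools. Other genes known as NRF2 targets went both ways. Those named here are examples without a selection rule, so their numbers do not show how the targets divide between the directions. Gclc, Gstm1, Gsta3, Cbr1 and Cbr3 were lower in both pools, though Gclc was close to TRAMP in Phf8-KO2. Gclm, Gsr, Me1, Abcc3, Fth1 and Ftl1 were higher in both pools. Txnrd1, the cytosolic thioredoxin reductase and also a selenoprotein, lies on chromosome 10 from 82833951 to 82897724 and was at 58.7 (TRAMP), 126 (Phf8-KO1) and 123 CPM (Phf8-KO2). The Phf8-KO pools differed by 1.03-fold, far less than their distance from TRAMP (log2 fold change 1.08, SE 0.19, edgeR adjusted p 0.101, DESeq2 adjusted p 0.00213). Nqo1, the quinone reductase often used as an NRF2 readout, was low in every library and on both sides of TRAMP, at 5.05, 6.19 and 3.83 CPM. Hmox1, which breaks down heme, was at 11.8, 11.7 and 14.4 CPM. Srxn1, which repairs oxidized peroxiredoxins, was at 28.0, 32.1 and 32.4 CPM. The log2 fold changes of Nqo1, Hmox1 and Srxn1 were -0.01, 0.14 and 0.20, with standard errors of 0.54, 0.32 and 0.19. The sign for Nqo1 turned with library size scaling and without the count filter, and that for Hmox1 with upper quartile scaling.

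In a list of 71 other genes of these pathways, 70 were tested, with both Phf8-KO pools below TRAMP for 33 (background 42.8%) and above it for 27 (background 40.8%). edgeR called 0 of them in either direction (background 0.0384% lower and 0.00% higher). Before adjustment its p was under 0.05 for 12 lower and 13 higher genes (background 12.2% and 14.9%), and with DESeq2 5 of 69 were called lower and 8 higher (background 4.59% and 9.42%). Enzymes of aldehydes and quinones were mostly lower, with both pools below TRAMP for 7 of 9 (background 42.8%). Cbr1, a carbonyl reductase, was at 130 CPM against 53.4 and 52.1 CPM with Phf8 knocked out (log2 fold change -1.31, SE 0.17, edgeR adjusted p 0.101), its relative Cbr3 at 16.9, 7.32 and 8.54 CPM, and Aldh1a1, a retinal dehydrogenase, at 371, 218 and 142 CPM.

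Of 7 other enzymes that use glutathione, both pools were below TRAMP for 5 (background 42.8%) and above it for 2 (background 40.8%). Ltc4s, among the higher ones, was at 1.46 CPM or less in every library. Gstz1, the zeta class transferase of tyrosine breakdown, was at 203, 81.0 and 53.3 CPM (log2 fold change -1.60, SE 0.31, edgeR adjusted p 0.105). Hagh, of methylglyoxal removal, was at 56.2, 31.3 and 24.4 CPM. Ptges, a prostaglandin E synthase of the microsomal transferase superfamily, was higher, at 128 CPM against 278 and 281 CPM with Phf8 knocked out (log2 fold change 1.13, SE 0.21, edgeR adjusted p 0.105). These 3 genes were named because of their difference from TRAMP, with both pools below it for Gstz1 and Hagh and above it for Ptges.

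Catalase and the peroxiredoxin, thioredoxin and glutaredoxin genes also differed in both directions. Cat, catalase, was at 107 CPM against 213 and 255 CPM with Phf8 knocked out (log2 fold change 1.13, SE 0.23, edgeR adjusted p 0.110). Of 14 peroxiredoxin, thioredoxin and glutaredoxin genes, both pools were below TRAMP for 9 (background 42.8%) and above it for 2 (background 40.8%). Prdx3, the mitochondrial peroxiredoxin, was at 179, 125 and 96.7 CPM, Glrx at 10.3, 4.73 and 4.497 CPM, and Glrx5, of iron-sulfur cluster assembly, at 9.14, 21.7 and 20.5 CPM.

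Among the genes that control NRF2, 4 of 6 were above TRAMP in both pools (background 40.8%) and 0 below (background 42.8%). The same backgrounds apply to the other subgroup counts of this paragraph, each of few genes. Keap1, the adaptor that directs NRF2 to degradation, was at 46.3 CPM against 80.8 and 95.1 CPM with Phf8 knocked out, on the opposite side of TRAMP to Nfe2l2 (log2 fold change 0.93, SE 0.21, edgeR adjusted p 0.117). Mafk, a small MAF partner, was at 24.6, 38.8 and 52.6 CPM. Among suppliers of NADPH, malic enzyme Me1 was at 33.2, 68.0 and 89.3 CPM and transketolase Tkt at 90.4, 172 and 155 CPM, while both pools were below TRAMP for the other 4 of 6. Both exporters of conjugates named by the same rule were higher, with Abcc3 at 61.5, 138 and 121 CPM and Abcc4 at 40.9, 57.5 and 61.9 CPM. Of 5 genes of selenoprotein synthesis and transport, 3 were above TRAMP in both pools and 2 below. Eefsec, the elongation factor that brings selenocysteine to the ribosome, was at 8.86, 26.5 and 25.1 CPM and Sephs2, which makes its selenium donor, at 16.6, 32.1 and 27.6 CPM. The lower ones, named after their values were seen, were Sepsecs, which completes selenocysteine on its tRNA, at 10.9, 6.19 and 6.01 CPM, and Selenop, the plasma selenium carrier, at 850, 781 and 312 CPM. In glutathione turnover, Oplah, the oxoprolinase, was at 9.76, 35.5 and 23.0 CPM and Ggct, gamma-glutamylcyclotransferase, at 27.1, 14.7 and 14.6 CPM. Of 4 iron and heme genes, 2 were above TRAMP in both pools and 1 below. Blvra, biliverdin reductase, was at 56.6, 38.7 and 34.5 CPM, while the ferritin subunits, named after their values were seen, were at 553, 938 and 794 CPM (Fth1) and 323, 506 and 453 CPM (Ftl1).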

How the data were processed

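Per the labels and the study's methods, the authors filtered the reads before alignment (HISAT2, GRCm38) and gene counting (HTSeq). What they deposited is a table of raw counts. Versions, annotation release and strand setting are not given in the sources used here, so reads shared by genes that overlap on opposite strands are uncertain. All 46095 symbols entered edgeR 4.0.16 under R 4.3.3 (quasi-likelihood test at its default setting, TMM, filterByExpr by group) and Benjamini-Hochberg adjustment over 18216 genes. A call needed an adjusted p under 0.05 and a change over 2-fold. The standard error is the log2 fold change divided by the square root of F. DESeq2 1.42.0, the study's tool, and limma 3.58.1 were alternatives. Of 25757 genes with a count, DESeq2 gave no adjusted p for 9488.

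Single-pool counts of genes beyond 2-fold used a prior count of 1. Coordinates and promoters are from RefSeq, exon lengths and transcripts from GENCODE, both on GRCm38. The exact 95% interval and the floor of 3 counts cover counting error only. The genes, the list of other pathway genes and the marker lists were chosen with earlier results of these data known. Described in full were members at 10 CPM or more, on 1 side of TRAMP in both pools, with a log2 fold change beyond 1. Library values were also given for those whose pools disagreed and for Nfe2l2, Gclc, Gclm, Gsr, Nqo1, Txnrd1, Hmox1, Srxn1 and Gpx1 to Gpx4. The other pathway genes named were those past an unadjusted p of 0.05 or 2-fold in both pools at 10 CPM or more, up to 3 in each subgroup.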

Additional observations from a re-analysis of the deposited data

How the results depend on the processing

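No paired analysis was possible because the TRAMP group is 1 library. The count of genes called depended on the tool. Without a filter on low counts it was 5 lower and 2 higher of 39 (background 3.32% and 5.55%). With DESeq2 it was 5 and 3 of 35 (background 4.59% and 9.42%). With edgeR's likelihood ratio test it was 5 and 2 of 36 (background 5.38% and 6.02%). In the list of 71 other pathway genes, these 3 settings called 3, 5 and 3 lower and 8, 8 and 6 higher, against the same backgrounds. DESeq2 gave an adjusted p for 69 of them, and the likelihood ratio test covered 70. Every other alternative run gave 0 in both directions. The cause was not tested. The legacy setting listed as an alternative is the default of the installed version, so the version without it was added after seeing the data. The median of -0.31 became -0.45 with upper quartile scaling, -0.24 with library size scaling, -0.44 with limma-voom and -0.49 without the 3 tested genes that share over 50% of their sequence (added after seeing the data), and was -0.46 to -0.38 when 1 Phf8-KO pool was left out, which leaves a value with no test. More than 2-fold from TRAMP in a single pool were 6 genes lower in Phf8-KO1 (background 16.1%) and 9 in Phf8-KO2 (19.5%), and 3 (16.5%) and 2 (16.7%) higher. With upper quartile scaling 1 gene was more than 2-fold higher in both pools. The log2 ratios of class sums with upper quartile scaling were -0.026 for synthesis and reduction, -0.72 for peroxidases, -0.83 for the alpha class, -0.64 for the mu class, -1.57 for the theta class, 0.0047 for NRF2 with its targets, -0.54 for microsomal transferases and -0.55 for all 40 genes, and with library size scaling 0.20 for synthesis and reduction, -0.60 for the alpha class and 0.23 for NRF2 with its targets. Signs turned for 8 genes, all with pools on different sides of TRAMP: with upper quartile scaling Gsta2 (-0.0088), Gstm4 (-0.14) and Hmox1 (-0.0079), with limma-voom Gsta2 (-0.011), at a mean CPM of at least 1 Gstm4 (-0.037), with library size scaling Nqo1 (0.058) and without a filter Nqo1 (0.0081). With Phf8-KO1 alone and Phf8-KO2 alone the values were 0.58 and -0.51 for Gsta2, 0.088 and -0.074 for Gstm4, -0.39 and 0.61 for Gstm5, -0.43 and 0.083 for Gsto2, 0.52 and -2.03 for Gstp1, -0.011 and 0.28 for Hmox1, -0.38 and 0.14 for Mgst3 and 0.29 and -0.40 for Nqo1. Genes under 5 CPM rest on few counts.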
